A study of Mus musculus with 15 samples.

Results

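Scavenger and lipoprotein uptake receptors are the surface proteins through which macrophages take up native and modified lipoproteins. The genes were chosen by symbol, as *Cd36*, *Scarb1*, *Msr1*, *Marco*, *Colec12*, *Olr1*, *Lrp1* and *Vldlr*, which is 8 of the 54390 genes counted in each library. The libraries were bulk RNA from BV2 cells, a mouse microglial line, and all 15 were used. WT non-foamy cells (n = 4) and *Trem2*-/- non-foamy cells (n = 3) were kept in media alone overnight. WT foamy cells (n = 4) and *Trem2*-/- foamy cells (n = 4) received 20 ug per ml of soluble cholesterol, which the methods describe as a complex with methyl-beta-cyclodextrin, so an effect of cholesterol and one of cyclodextrin cannot be told apart. *Trem2* was targeted in a BV2 line that expresses Cas9, and the knockout was expanded from single cells by limiting dilution, so a genotype difference here is also a difference between a clonal line and its control. The labels and methods do not say whether the WT cells carried Cas9. The labels do not say either whether samples of a group came from separate cultures, and p-values then measure only the spread between these samples.

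Scavenger receptors bind oxidized or acetylated low-density lipoprotein (LDL), and most of them also bind apoptotic cells or microbes. They are not shut down by the cholesterol a cell has already stored, and macrophages that take up lipid through them fill with droplets and become foamy. The other lipoprotein receptors, such as LRP1 and VLDLR, work differently, through clathrin-coated pits and apolipoprotein E or other ligands, and some of them are held in check by an E3 ligase that degrades them.

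The 8 receptors fall into 4 classes. *Cd36* and *Scarb1* are class B receptors, with the chain crossing the membrane at both ends. CD36 binds oxidized LDL and long-chain fatty acids, and the protein of *Scarb1*, SR-BI, exchanges cholesteryl esters with high-density lipoprotein. *Msr1*, *Marco* and *Colec12* encode class A receptors, trimers with a collagen-like stalk. MSR1 is the classical macrophage receptor for modified LDL, and MARCO binds bacteria and particles. COLEC12 carries a lectin head that binds sugars, and the receptor also binds oxidized LDL. *Olr1* encodes LOX-1, a lectin-like receptor for oxidized LDL best known from endothelium. *Lrp1* encodes a very large endocytic receptor for apolipoprotein E, proteases and their inhibitors. VLDLR binds triglyceride-rich lipoproteins and reelin.

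On GRCm38, with GENCODE M21 gene models, *Cd36* (ENSMUSG00000002944) lies at chr5:17781690-17888801 on the minus strand and *Scarb1* (ENSMUSG00000037936) at chr5:125277087-125341094, also minus. *Msr1* lies at chr8:39581685-39642673 (minus), *Marco* at chr1:120474538-120505024 (minus), *Olr1* at chr6:129485244-129507165 (minus), *Lrp1* at chr10:127538161-127621148 (minus), and *Vldlr* at chr19:27216484-27254231 (plus). No exon of the 8 genes overlapped an exon of another gene. Of all stretches of 50 bases in its transcripts, *Colec12* shared 4.33% with other genes, spread over 795 genes with at most 0.989% in any of them. *Scarb1* shared 0.0703% and *Olr1* 0.165%, and the other 5 shared none.

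The RefSeq promoter table for GRCm38.p6 held 5 of the 8 genes. The 250 bases before the start site are printed for *Cd36* and *Lrp1*, the members with a difference in the counts and an entry in that table. Capitals mark the GC box letters GGGCGG and the nuclear receptor half-site letters AGGTCA, each searched on both strands, so that they may stand as CCGCCC or TGACCT. The AP-1 letters TGACTCA and the PU.1 letters GAGGAAG were searched as well and were in neither stretch.
Cd36, chr5:17835897-17836146, minus strand: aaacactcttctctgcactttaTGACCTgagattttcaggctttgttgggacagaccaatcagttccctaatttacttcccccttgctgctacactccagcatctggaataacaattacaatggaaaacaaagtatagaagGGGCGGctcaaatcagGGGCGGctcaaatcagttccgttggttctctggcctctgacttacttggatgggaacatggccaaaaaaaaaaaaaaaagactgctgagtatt
Lrp1, chr10:127621149-127621398, minus strand: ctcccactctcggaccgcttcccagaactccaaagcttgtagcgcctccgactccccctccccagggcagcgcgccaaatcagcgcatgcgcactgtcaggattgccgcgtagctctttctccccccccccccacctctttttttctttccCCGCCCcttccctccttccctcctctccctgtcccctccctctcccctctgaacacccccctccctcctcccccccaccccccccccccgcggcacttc
The *Cd36* stretch held 43.2% G and C, against a median of 52.4% over the 250 bases before 32851 promoters' start sites, and the *Lrp1* stretch held 67.2%. Before *Cd36*, GGGCGG stood 109 and 93 bases ahead of the start site, inside a short stretch of repeated letters, and AGGTCA stood on the opposite strand 228 bases ahead. Before *Lrp1* there was 1 GC box, on the opposite strand, 99 bases ahead. GGGCGG was in 32.7% and AGGTCA in 14% of all such stretches of 250 bases. The table's *Cd36* start lies inside the annotated gene, which has further starts upstream, and the counts do not say which start was used. These letters are a description of the sequence and were not tied to the changes below.

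Libraries held 23538963 to 41683825 counted reads. *Trem2*, the targeted gene, was at 354 ± 41.2 CPM (read counts scaled to library size with TMM factors, ± SD) in WT non-foamy and 373 ± 26.4 in WT foamy cells, against 222 ± 8.79 in *Trem2*-/- non-foamy and 224 ± 4.56 in *Trem2*-/- foamy cells. Its log2 fold change was -0.67 without and -0.73 with cholesterol (adjusted p = 2.84e-07 and 7.08e-08, edgeR). Every knockout library lay below every WT library, and transcripts remained in all of them. The study checked the loss of Trem2 protein in its knockout BV2 cells by flow cytometry after cholesterol, and transcript counts do not give protein. Of 10 macrophage and microglia markers, 8 averaged at least 1 CPM over all libraries and none was at 0 throughout, while the microglial marker *Tmem119* stayed at 0.0489 to 0.728 CPM. The microglial markers *Cx3cr1* (1.54 ± 0.292 and 1.02 ± 0.192 CPM in WT against 0.301 ± 0.0887 and 0.507 ± 0.245 in *Trem2*-/- non-foamy and foamy cells) and *P2ry12* (1.74 ± 0.509 and 1.76 ± 0.337 against 0.598 ± 0.0824 and 0.810 ± 0.139) were lower in every *Trem2*-/- library than in any WT library of the same state. The summed level of the 10, mostly *Tyrobp*, was 2058 to 2525 CPM in WT non-foamy, 2248 to 2524 in WT foamy, 2976 to 3185 in *Trem2*-/- non-foamy and 3090 to 3179 in *Trem2*-/- foamy libraries, and so moved with genotype. Not every marker moved with the sum: the group means of *Spi1* ran only from 93.4 to 101 CPM, and *Cx3cr1* and *P2ry12* went the other way. The 5 fibroblast markers were at 0 in every library. The 4 endothelial markers, mostly *Kdr*, summed to 7.04 to 9.88 CPM in WT non-foamy, 4.64 to 8.79 in WT foamy, 1.91 to 2.65 in *Trem2*-/- non-foamy and 3.75 to 4.42 in *Trem2*-/- foamy libraries, and so moved with genotype too, with *Cdh5* and *Tek* at or near 0. The 5 astrocyte and neuron markers summed to less than 1 CPM in every library, at 0.0644 to 0.176 in WT non-foamy and 0.505 to 0.662 in *Trem2*-/- non-foamy libraries, and overlapped between genotypes with cholesterol. In bulk RNA, fewer cells of a type and less RNA per cell cannot be told apart.

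Of the 8 receptors, 5 were at 12.2 CPM or more in every library. Per kilobase of exon, the mean level in WT non-foamy cells was 56.4 CPM for *Colec12*, 13.9 for *Scarb1*, 7.14 for *Lrp1*, 4.80 for *Cd36* and 3.81 for *Msr1*, and no 2 neighbours in this order overlapped in any library. In WT foamy cells the order of *Cd36* (3.82) and *Msr1* (3.95) was turned, but their libraries overlapped, as did those of *Scarb1* (12.1) and *Lrp1* (9.10). In *Trem2*-/- non-foamy cells *Lrp1* (9.94) and *Scarb1* (9.24) overlapped, while *Colec12* (114), *Cd36* (4.53) and *Msr1* (2.44) each stood apart from their neighbours. In *Trem2*-/- foamy cells *Colec12* was at 103 and *Msr1* at 2.96, each apart, and the libraries of *Scarb1* (10.2) overlapped those of *Lrp1* (8.93), which overlapped those of *Cd36* (7.20). These orders rest on the merged exon length of all annotated transcripts of a gene. By CPM alone, in WT non-foamy cells, *Msr1* (24.2) stood above *Cd36* (17.2) and *Lrp1* (126) above *Scarb1* (117.7).

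*Colec12* therefore supplied most of the summed per-kilobase level of the 8 genes in every group. Its share of the sum was 65.5% ± 2.50 in WT non-foamy, 70.9% ± 3.25 in WT foamy, 81.3% ± 1.16 in *Trem2*-/- non-foamy and 77.7% ± 2.73 in *Trem2*-/- foamy cells. The share of *Cd36* was 5.58% ± 0.170, 3.83% ± 0.520, 3.23% ± 0.131 and 5.43% ± 0.454 in the same order. The sum itself was 86.1 ± 2.96, 99.9 ± 2.27, 140.2 ± 1.70 and 132.7 ± 7.34 CPM per kilobase.

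**Figure D1:**
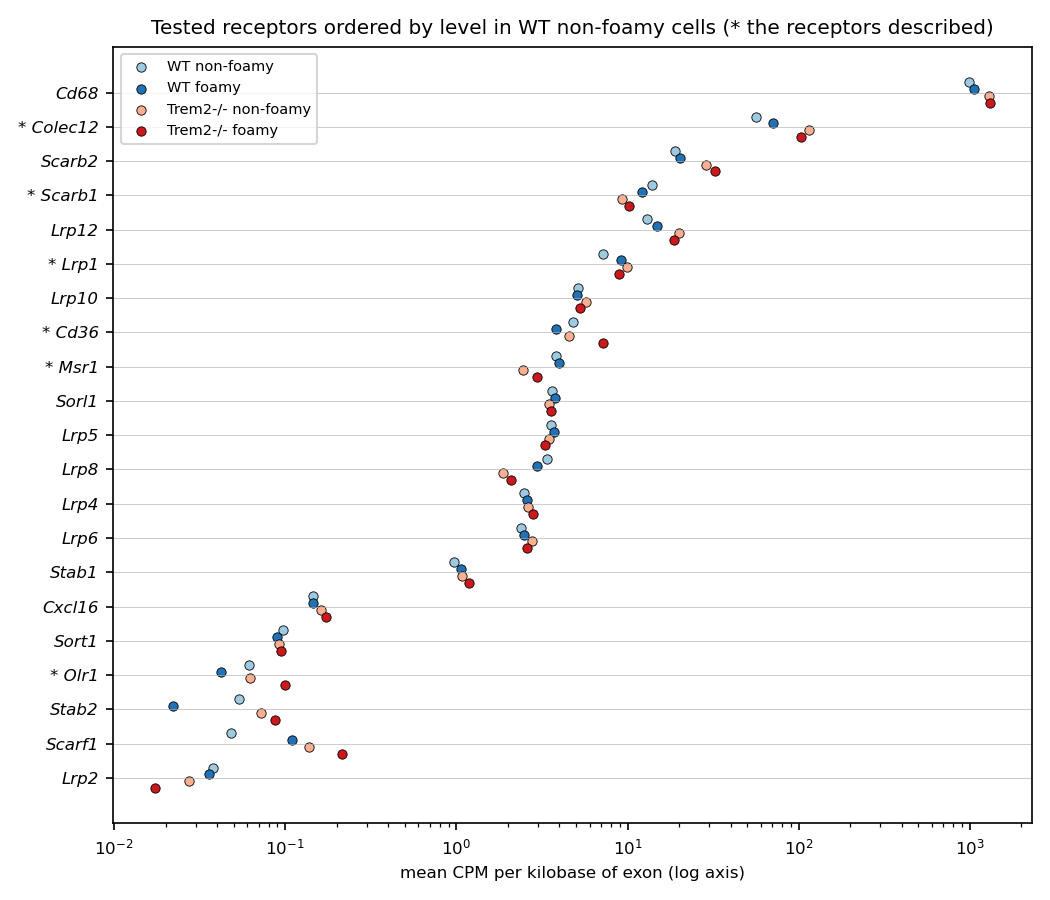
Mean CPM per kilobase of exon (log axis) of the 21 scavenger and lipoprotein receptors of the lists that were tested in the 4 groups, with the receptors described here marked by a star. Colec12 lies below Cd68 alone and above the other receptors shown, and Olr1 lies near the bottom at 0.0423 to 0.0991.

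The other 3 receptors were at or near the floor. *Vldlr* had 0 reads in all 15 libraries, which allows a level of up to 0.00596 CPM over the 503704621 reads together (3 counts, counting error only). *Marco* had 0 to 4 reads in a library and 4, 1, 3 and 6 reads in all in WT non-foamy, in WT foamy, in *Trem2*-/- non-foamy and in *Trem2*-/- foamy cells. Neither passed the filter on low counts, so neither was tested. *Olr1* passed it with 2 to 17 reads a library and was not called in any comparison. Between foamy genotypes it was at 0.354 ± 0.192 CPM in *Trem2*-/- and 0.151 ± 0.0446 CPM in WT cells, with a log2 fold change of 1.18 whose interval did not hold 0 (95% interval 0.06 to 2.29) but which missed the threshold over all genes (adjusted p = 0.104).

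Cholesterol moved *Cd36* and *Colec12* differently in the 2 genotypes. In WT cells, *Colec12* rose and no other receptor passed the test. In *Trem2*-/- cells, *Cd36* rose and no other receptor passed. Thus 1 of the 6 tested receptors was called in each genotype (adjusted p under 0.05, edgeR). Of the 14237 tested genes, 2.8% were called in WT and 0.14% in *Trem2*-/- cells. The receptors were chosen with earlier results of these data known, and nothing is read from counts of so few.

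Among the expressed receptors, *Cd36* had the largest difference between the responses. In WT non-foamy libraries it was at 18.0, 16.5, 18.0 and 16.5 CPM, and in WT foamy libraries at 13.8, 12.2, 13.1 and 15.8 CPM. The WT groups did not overlap, the foamy one being lower, as was the case in one direction or the other for 9.71% of tested genes. The log2 fold change was -0.33 (s.e. 0.09, 95% interval -0.52 to -0.14), with an adjusted p of 0.0547 that missed the threshold, and it passed without WT foamy replicate 4 (-0.40, adjusted p = 0.0184) and with DESeq2 (-0.33, adjusted p = 0.0129).

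In *Trem2*-/- non-foamy libraries *Cd36* was at 17.2, 16.0 and 15.6 CPM, and in *Trem2*-/- foamy libraries at 24.8, 27.8, 22.8 and 28.0 CPM. Every *Trem2*-/- foamy library was thus above every library of the other groups. The rise was 1.59-fold (log2 0.67, s.e. 0.10, 95% interval 0.46 to 0.87, adjusted p = 0.00167), and libraries failed to overlap in this comparison for 9.26% of tested genes. The difference of the responses, *Trem2*-/- minus WT, was 0.99 on the log2 scale (s.e. 0.14, 95% interval 0.71 to 1.28, adjusted p = 0.000141), and it passed under all 22 alternatives, at 0.94 to 1.07. Of the 6 tested receptors, 2 were called in this comparison, against 3.64% of all genes, and nothing is read from so small a count. The signs of the 2 were opposite.

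*Scarb1*, the other class B receptor, followed neither pattern clearly. It was at 120.1, 128, 103 and 119.5 CPM in WT non-foamy, 110.2, 105.5, 92.3 and 103 in WT foamy, 69.6, 80.7 and 85.4 in *Trem2*-/- non-foamy, and 86.9, 96.3, 89.8 and 73.3 in *Trem2*-/- foamy libraries. Foamy and non-foamy libraries overlapped in both genotypes. The log2 fold changes were -0.19 (95% interval -0.37 to -0.02, adjusted p = 0.239) and 0.14 (-0.05 to 0.33, adjusted p = 0.860), and their difference was 0.34 (0.08 to 0.60, adjusted p = 0.141). That difference passed without *Trem2*-/- foamy replicate 4 (0.41, adjusted p = 0.0493), the library with the lowest *Scarb1* level of its group, and with no filter on low counts (0.34, adjusted p = 0.0483).

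**Figure D2:**
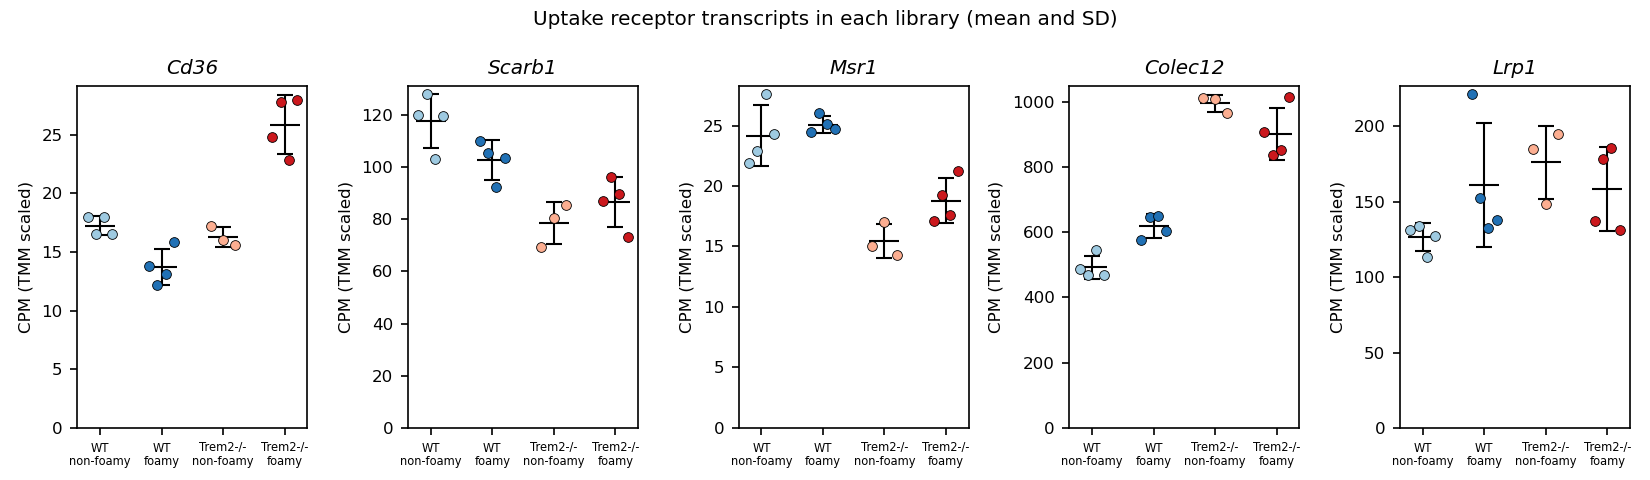
CPM after TMM scaling of the 5 clearly expressed receptors in each library (points), with the mean and SD of each group (bars), on linear axes from 0. Cd36 is highest in the 4 *Trem2*-/- foamy libraries (22.8 to 28.0), and Colec12 in every *Trem2*-/- library (835.5 to 1013) lies above all WT libraries (468 to 651).

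Among the class A receptors, *Colec12* rose with cholesterol in WT cells. The gene lies on the plus strand of chr18:9707595-9882644 (GRCm38). It was at 487, 468, 544 and 469 CPM in WT non-foamy and at 575.5, 647, 651 and 602 CPM in WT foamy libraries, without overlap. This was a 1.26-fold rise (log2 0.33, s.e. 0.07, 95% interval 0.19 to 0.47, adjusted p = 0.0101), which missed the threshold without WT foamy replicate 2 (0.31, adjusted p = 0.0553). In *Trem2*-/- cells it was at 1011, 1007 and 965 CPM without and 905.5, 835.5, 851 and 1013 CPM with cholesterol, and these ranges overlapped. There the log2 fold change was -0.14 (95% interval -0.30 to 0.01, adjusted p = 0.791). The responses differed by -0.47 (s.e. 0.10, 95% interval -0.68 to -0.26, adjusted p = 0.0115), a sign opposite to that of *Cd36*.

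*Msr1* did not pass the test in either response. It was at 21.9, 22.9, 27.6 and 24.3 CPM in WT non-foamy and at 24.4, 26.0, 25.1 and 24.7 CPM in WT foamy libraries, with a log2 fold change of 0.06 (95% interval -0.13 to 0.24, adjusted p = 0.818). In *Trem2*-/- cells it was at 15.1, 17.0 and 14.3 CPM without and at 17.1, 19.2, 17.6 and 21.2 CPM with cholesterol. Those ranges did not overlap, but the log2 fold change of 0.28 (95% interval 0.08 to 0.49) had an adjusted p of 0.624. The interval of the difference between responses, -0.05 to 0.50, held 0.

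Relative to its mean, *Lrp1* varied more between libraries than the other expressed receptors in every group but WT non-foamy cells. It was at 131, 134, 113 and 127 CPM in WT non-foamy, 221, 153, 132 and 138 in WT foamy, 185, 149 and 195 in *Trem2*-/- non-foamy, and 137, 178, 186 and 131 in *Trem2*-/- foamy libraries. WT foamy replicate 1 stood far above the other 3 WT foamy libraries. The responses were 0.35 in WT cells (95% interval 0.07 to 0.63, adjusted p = 0.168) and -0.16 in *Trem2*-/- cells (-0.45 to 0.14, adjusted p = 0.906), and the WT value was 0.16 without WT foamy replicate 1. The WT response passed with no filter on low counts (0.35, adjusted p = 9.15e-05). The difference was -0.51 (-0.91 to -0.10, adjusted p = 0.162) and passed only with no filter on low counts (-0.51, adjusted p = 0.000121) or with GC and length trends removed (-0.35, adjusted p = 0.0388).

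**Figure D3:**
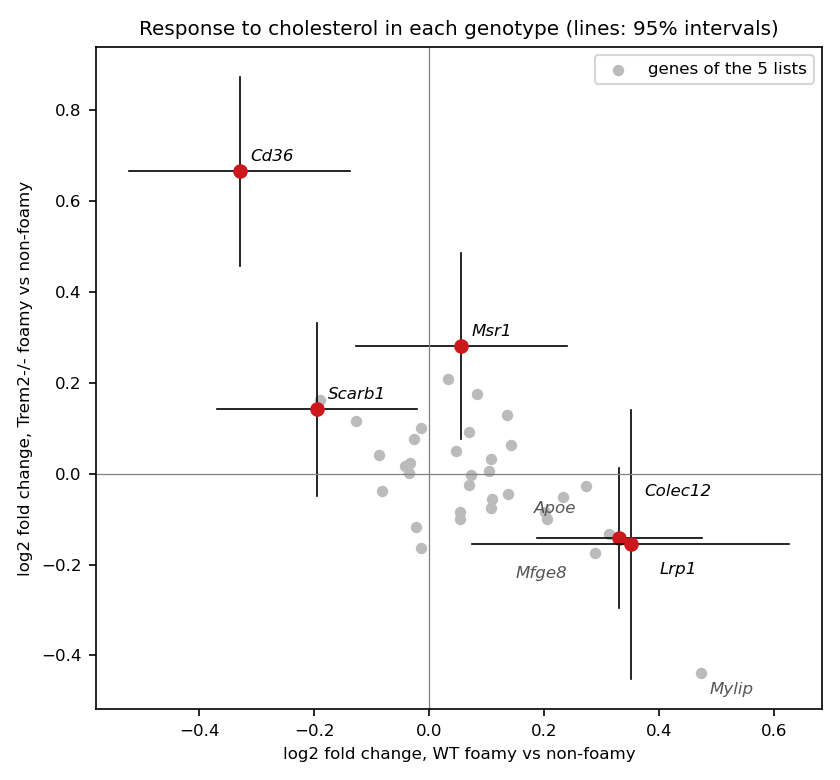
Log2 fold change with cholesterol in WT cells (x axis) and in *Trem2*-/- cells (y axis) for the 5 expressed receptors, with 95% intervals as lines, and for 33 genes of the pathway lists with at least 1 CPM in every group (grey). Cd36 lies at -0.33 and 0.67, and Colec12 and Lrp1 lie close together at positive WT and negative *Trem2*-/- values; the 2 axes share no library.

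Library composition moved with some of these values. Within a library, the median deviation of the 25% most GC-rich genes minus that of the 25% most GC-poor ones, among tested genes averaging at least 1 CPM (2925 genes in each class), ran from -0.27 (*Trem2*-/- foamy replicate 4) to 0.15 (WT foamy replicate 1) on the log2 scale. *Lrp1* (57.4% GC in its transcripts) is in the GC-rich class, which starts at 54.6%, and *Scarb1* (54.5%) lies just below it. *Cd36* (39.6%), *Msr1* (42.2%) and *Colec12* (43.8%) are in the GC-poor class, which ends at 45.9%. In each group of 4 libraries, the library with the lowest GC value was the lowest for both *Scarb1* and *Lrp1* and the highest for *Colec12*. In the group of 3 this held for *Lrp1* but not for *Scarb1* or *Colec12*. For *Msr1* that library was the highest in every group but WT foamy cells. *Cd36* was highest there only in *Trem2*-/- foamy cells, by a narrow margin, and was nearly tied for highest in WT non-foamy cells. With trends on GC and exon length removed from the counts, an alternative chosen after seeing the data, the difference of responses was 0.41 for *Scarb1* (adjusted p = 0.00264), the WT response of *Cd36* was -0.32 (adjusted p = 0.0251) and that of *Scarb1* was -0.25 (adjusted p = 0.00674). The differences of *Cd36* and *Colec12* passed with and without these trends.

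Without cholesterol, 4 of the 6 tested receptors differed between genotypes, against 43.6% of all tested genes, and nothing is read from a count of so few. *Colec12* and *Lrp1* were higher in *Trem2*-/- cells, and *Scarb1* and *Msr1* were lower. *Cd36* was at 16.3 ± 0.839 CPM in *Trem2*-/- (n = 3) and at 17.2 ± 0.836 CPM in WT cells (n = 4), with overlapping libraries and a log2 fold change of -0.08 (95% interval -0.29 to 0.13, adjusted p = 0.543).

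*Colec12* was 2.02-fold higher, at 994 ± 25.2 against 492 ± 35.8 CPM (log2 1.01, s.e. 0.07, adjusted p = 3.10e-10). *Msr1* was at 15.5 ± 1.39 against 24.2 ± 2.49 CPM (log2 -0.64, s.e. 0.10, adjusted p = 1.37e-05), the opposite direction for another class A receptor. *Scarb1* was at 78.5 ± 8.13 against 117.7 ± 10.5 CPM (log2 -0.58, s.e. 0.09, adjusted p = 1.94e-05). For these 3 receptors and *Lrp1* the libraries did not overlap, which held for 46.1% of tested genes. *Lrp1* was at 176 ± 24.3 against 126 ± 9.29 CPM (log2 0.48, s.e. 0.14, adjusted p = 0.00898), and this call was lost without *Trem2*-/- non-foamy replicate 3 (0.40, adjusted p = 0.0573) and with libraries scaled by total counts alone (0.34, adjusted p = 0.146). Under that scaling the median of all tested genes in this comparison was -0.13, against 0.02 with TMM factors.

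With cholesterol, 4 of the 6 tested receptors differed, against 30.2% of all genes, and nothing is read from this count either. The 4 were *Cd36* and *Colec12*, both higher in *Trem2*-/- cells, and *Msr1* and *Scarb1*, both lower. *Cd36* was 1.88-fold higher in *Trem2*-/- foamy cells, at 25.8 ± 2.49 against 13.7 ± 1.55 CPM (log2 0.91, s.e. 0.09, adjusted p = 1.17e-07). *Colec12* was at 901 ± 80.2 against 619 ± 36.2 CPM (log2 0.54, s.e. 0.07, adjusted p = 3.20e-06). *Msr1* was lower at 18.8 ± 1.85 against 25.1 ± 0.701 CPM (log2 -0.42, s.e. 0.09, adjusted p = 0.00102). Libraries of these 3 genes did not overlap, against 28.8% of tested genes. All of these are transcript levels, and they do not give receptor protein or uptake. The study reported less CD36 protein on *Trem2*-/- foamy macrophages from the peritoneum. It also reported less uptake of oxidized LDL by *Trem2*-/- foamy BV2 cells.

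*Scarb1* was lower in *Trem2*-/- foamy cells by a smaller margin, at 86.6 ± 9.68 against 102.8 ± 7.61 CPM (log2 -0.25, s.e. 0.08, adjusted p = 0.0292). Its libraries overlapped, and the call was lost on leaving out WT foamy replicate 1 (-0.21, adjusted p = 0.0769), 2 (-0.24, 0.0694) or 4 (-0.25, 0.0582), or *Trem2*-/- foamy replicate 1 (-0.25, 0.0584) or 4 (-0.18, 0.118). *Lrp1* was at 158 ± 27.9 against 161 ± 41.1 CPM (log2 -0.03, 95% interval -0.30 to 0.25, adjusted p = 0.902). Its direction turned without WT foamy replicate 1 (0.17) or *Trem2*-/- foamy replicate 1 (0.04) or 4 (0.05) and with GC and length trends removed (0.09), and it passed in none of these (adjusted p = 0.273, 0.887, 0.832 and 0.354). The summed macrophage markers were also higher in *Trem2*-/- libraries, and *Cx3cr1*, *P2ry12* and the summed endothelial markers lower, as given above, and their part in the genotype differences was not tested.

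**Figure D4:**
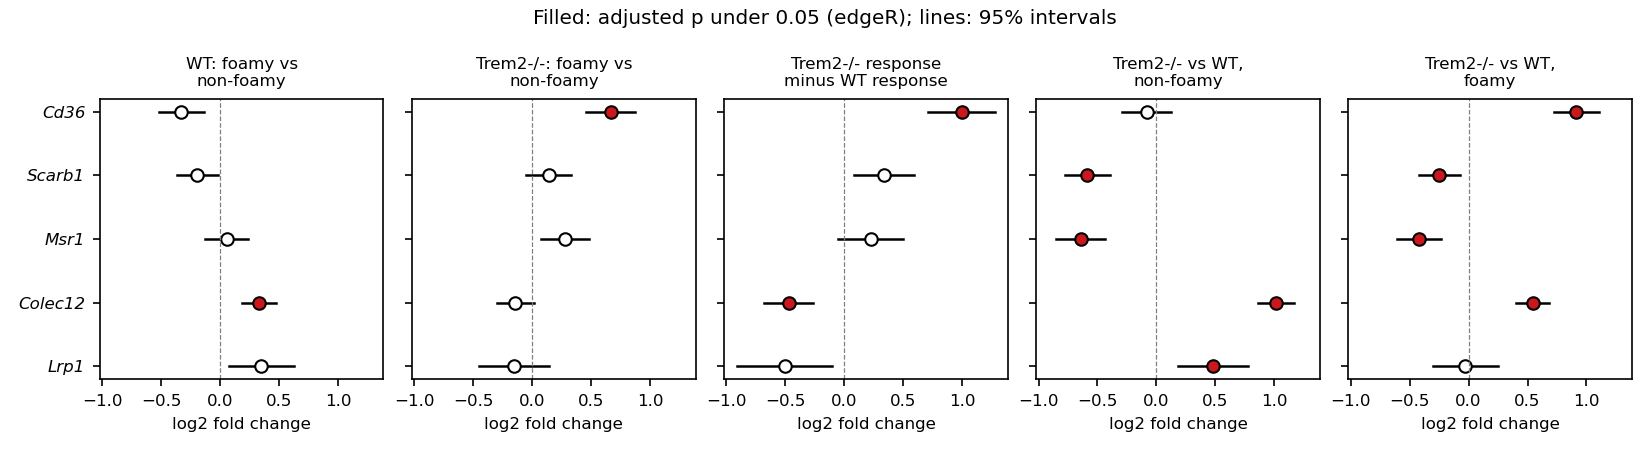
Log2 fold changes of the 5 expressed receptors in the 5 comparisons, with 95% intervals (lines) and filled points where the adjusted p was under 0.05. Cd36 passes in the *Trem2*-/- response, in the difference of responses (0.99) and between foamy genotypes (0.91), and Colec12 passes in 4 of the 5 panels.

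By the width of their 4 group means, *Colec12* spanned 1.02 on the log2 scale, *Cd36* 0.91, *Msr1* 0.70, *Scarb1* 0.58 and *Lrp1* 0.47. Of all tested genes, 11.4% spanned more than *Colec12*, 14.5% more than *Cd36* and 42.6% more than *Lrp1*. The genes with profiles closest to that of *Colec12* over the 15 libraries were *Cd84* (root mean square difference of 0.05 in log2 CPM) and *Serpinb6a* (0.06). *Cd84* encodes a self-binding receptor of the SLAM family and *Serpinb6a* an inhibitor of serine proteases. The search was made only for receptors spanning at least 1, and *Colec12* was the only one.

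The other genes of the uptake pathway were counted by 5 lists. Of 11 other scavenger receptors, 6 were tested and none passed in either response. Without cholesterol, 3 were called, all higher in *Trem2*-/- cells, against 43.6% of all tested genes called in either direction, among them *Scarb2*, a lysosomal member of the CD36 family (log2 0.60, adjusted p = 7.63e-08), and *Cd68*, the lysosomal macrosialin (0.38, adjusted p = 0.000181). With cholesterol 3 were called as well, against 30.2% of all genes, and *Scarb2* (0.69) and *Cd68* (0.31) were again higher. The third call was *Scarf1* without cholesterol and *Stab2* with it, both averaging under 1 CPM in every group, and that of *Scarf1* was lost on leaving out any of WT non-foamy replicates 1 and 2 or the 3 *Trem2*-/- non-foamy libraries (highest adjusted p = 0.0746, at 1.26) and with no filter on low counts (1.53, adjusted p = 0.0809). The median log2 difference of the 6 was 0.43 without and 0.50 with cholesterol, against 0.02 and 0.00033 over all tested genes. *Scarf1*, *Stab2* and *Cxcl16* of these averaged under 1 CPM in every group. *Stab1* was not called in either state (0.15 in both), so no shift of the whole list is read from these medians.

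Of 11 other lipoprotein receptors and sortilins, 9 were tested and none passed in either response or in their difference. *Lrp8*, a receptor for apolipoprotein E and reelin, was at 35.3 ± 3.74 CPM in WT non-foamy and 19.7 ± 1.93 in *Trem2*-/- non-foamy cells, and with cholesterol the WT samples lay between 28.6 and 34.4 CPM and the *Trem2*-/- samples between 20.1 and 24.0 CPM. It was lower in *Trem2*-/- cells in both states (log2 -0.85 and -0.50, adjusted p = 4.03e-07 and 0.000235). *Lrp12* was higher (0.62 and 0.32, adjusted p = 4.73e-08 and 0.000253), though not past the threshold with cholesterol under total count scaling. *Lrp2* was called with cholesterol (-1.05, adjusted p = 0.0484) at under 1 CPM, and this call was lost without WT foamy replicate 1 or 4 or *Trem2*-/- foamy replicate 1, 2 or 4 (-1.06 to -0.85, adjusted p up to 0.137). It was also lost with no filter on low counts (adjusted p = 0.140), with only the groups compared (0.0652) and with GC and length trends removed (0.0506), at -1.06 to -1.02. In all, 2 of the 9 differed between genotypes without and 3 with cholesterol, against 43.6% and 30.2% of all tested genes, with median log2 differences of -0.04 and 0.05.

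Of 7 adaptors, chaperones and degraders of these receptors, 5 were tested. *Mylip* encodes the E3 ligase that sends VLDLR and LRP8 to degradation, and it is an LXR target. It was at 21.3 ± 1.42 CPM in WT non-foamy, 29.7 ± 1.81 in WT foamy, 38.8 ± 2.14 in *Trem2*-/- non-foamy and 28.6 ± 1.04 in *Trem2*-/- foamy cells. It rose with cholesterol in WT cells (log2 0.47, s.e. 0.07, adjusted p = 0.000650) and fell in *Trem2*-/- cells (-0.44, s.e. 0.08, adjusted p = 0.0128), with a difference of -0.91 (s.e. 0.11, adjusted p = 2.04e-05). The fall in *Trem2*-/- cells missed the threshold without *Trem2*-/- non-foamy replicate 1 (adjusted p = 0.104, at -0.44) or 2 (0.183, at -0.40), without *Trem2*-/- foamy replicate 3 (0.0800, at -0.42), and under total count scaling (0.121, at -0.43).

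Between genotypes, *Mylip* was higher in *Trem2*-/- cells without cholesterol (0.86, adjusted p = 8.88e-09). *Lrpap1*, the chaperone that keeps ligands off LRP1 in the secretory pathway, was higher in both states (0.78 and 0.50, adjusted p = 3.38e-08 and 1.90e-05). The clathrin adaptor *Dab2* was lower in both (-0.39 and -0.35, adjusted p = 0.000197 and 0.000456). In all, 4 of the 5 were called without cholesterol (2 higher, 2 lower) and 2 with it (1 higher, 1 lower), against 43.6% and 30.2% of all tested genes, and nothing is read from counts of so few.

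Of 16 partners and regulators of CD36 and SR-BI, 14 were tested and none passed in a response or in the difference. *Fabp4*, a cytosolic carrier of fatty acids, had the largest genotype difference of the list, at 66.2 ± 6.32 CPM in WT non-foamy and 219.5 ± 10.3 in *Trem2*-/- non-foamy cells (1.73, adjusted p = 1.82e-12) and at 77.7 ± 9.84 and 211.9 ± 16.7 CPM with cholesterol (1.45, adjusted p = 2.58e-11). *Lpl*, the lipase that frees fatty acids from lipoproteins, was lower (-0.50 and -0.44, adjusted p = 1.43e-06 and 6.06e-06). *Lyn* was lower without cholesterol (-0.36, adjusted p = 5.08e-05) and was not called with it (-0.11, adjusted p = 0.131). *Rxra*, the shared partner of PPAR and LXR receptors, was higher (0.42 and 0.35), but under total count scaling neither difference passed. *Pparg*, a nuclear receptor known to drive *Cd36*, stayed at 0 to 0.642 CPM in all libraries. In the genotype comparisons 7 of the 14 were called without cholesterol (4 higher, 3 lower) and 5 with it (3 higher, 2 lower), shares near the 43.6% and 30.2% of all tested genes.

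Of 10 soluble ligands, 7 were tested. *Apoe*, a ligand of LRP1 and VLDLR, was at 1770 ± 127 CPM in WT non-foamy, 2199 ± 69.2 in WT foamy, 4122 ± 318.5 in *Trem2*-/- non-foamy and 3760 ± 191 in *Trem2*-/- foamy cells. It was higher in *Trem2*-/- cells (log2 1.22 and 0.77, adjusted p = 1.38e-11 and 1.64e-08) and rose with cholesterol in WT cells (0.31, adjusted p = 0.0131). That rise missed the threshold without WT non-foamy replicate 1 (adjusted p = 0.0668, at 0.28) or 4 (0.0550, at 0.29) or WT foamy replicate 2 (0.0657, at 0.29), and with only the groups compared (0.0619, at 0.31). Its responses differed by -0.45 (s.e. 0.10, adjusted p = 0.0155), which missed the threshold without *Trem2*-/- non-foamy replicate 3 (-0.38, adjusted p = 0.0592).

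*Mfge8*, which bridges apoptotic cells to phagocytes, was higher in *Trem2*-/- cells (0.79 and 0.33, adjusted p = 1.76e-07 and 0.00381), the second not past the threshold under total count scaling. Its responses differed by -0.46 (adjusted p = 0.0368), a call that was lost on leaving out WT non-foamy replicate 1, WT foamy replicate 1 or 2, any *Trem2*-/- non-foamy library, or *Trem2*-/- foamy replicate 1, 3 or 4 (-0.50 to -0.40, adjusted p up to 0.108), and under total count scaling (-0.45, adjusted p = 0.115). The complement genes *C1qb* (0.84 and 1.02) and *C1qc* (0.44 and 0.55) were higher, the latter without cholesterol not past the threshold when *Trem2*-/- non-foamy replicate 3 was left out (0.32, adjusted p = 0.0728) or under total count scaling (0.30, adjusted p = 0.0843). *C1qa*, of the same complex, was at 0.0781 ± 0.0586 CPM in *Trem2*-/- and 0.261 ± 0.0902 CPM in WT non-foamy cells, without overlap and in the other direction (-1.74, adjusted p = 0.0611), and its value with cholesterol was 0.49 (adjusted p = 0.546). *Calr*, the calreticulin that C1q and LRP1 bind, was lower (-0.47 and -0.34). In each state 6 of the 7 tested ligands were called between genotypes, 4 higher and 2 lower (*Calr*, and *Lpl*, which is in this list too), against 43.6% of all tested genes without and 30.2% with cholesterol. The list's median log2 difference was 0.44 without and 0.49 with cholesterol, against 0.02 and 0.00033 over all tested genes. The 0.49 is the value of *C1qa* itself, which was under 1 CPM and not called. The 0.44 is that of *C1qc*. The list was chosen with earlier results of these data known, so no shift of it is read from the medians or the counts.

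**Figure D5:**
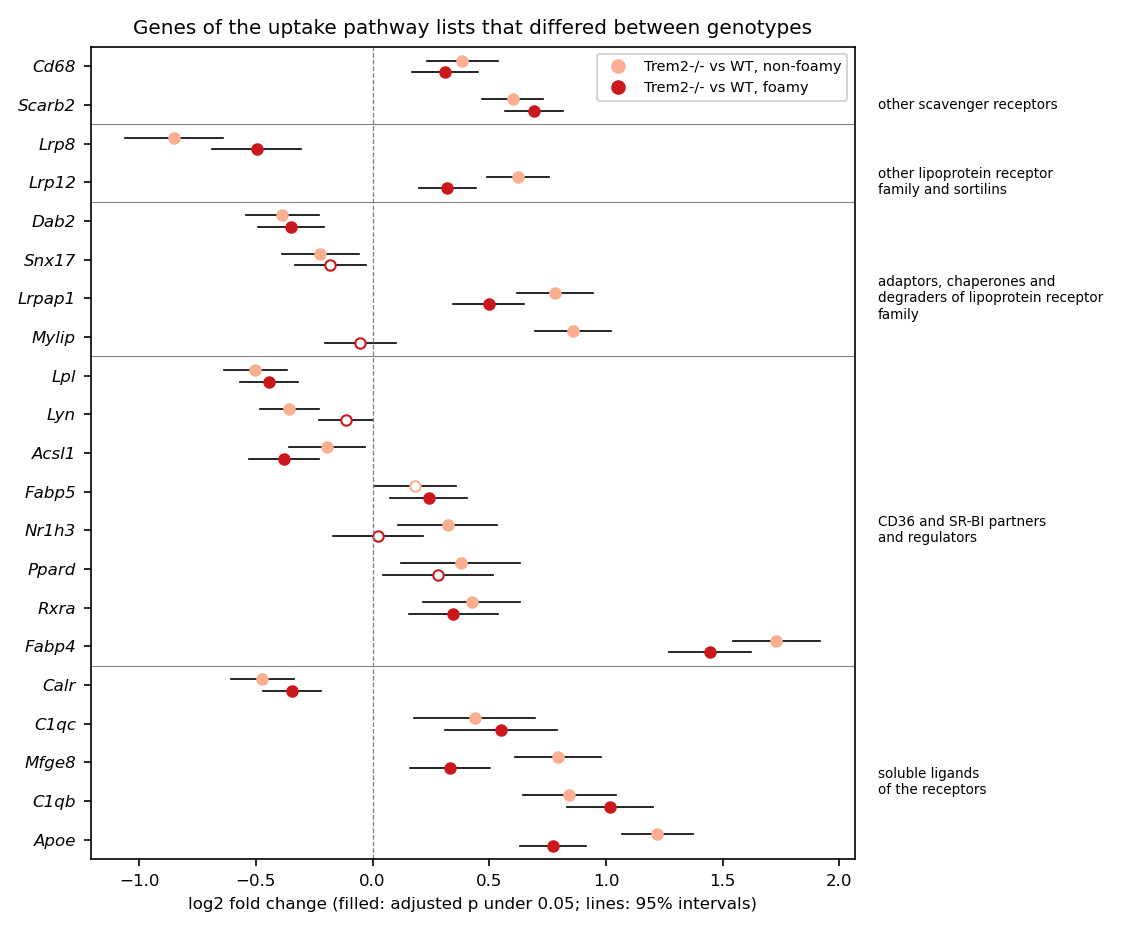
Log2 fold change of *Trem2*-/- against WT cells, non-foamy (light) and foamy (dark), for the 21 list genes with at least 1 CPM in every group that passed in either comparison, with 95% intervals (lines) and filled points where the adjusted p was under 0.05. Lrp8 lies furthest below 0, and Fabp4 and Apoe furthest above it without cholesterol.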

How the data were processed

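The authors deposited raw whole-number counts of reads per gene, 1 table of 54390 genes for each of 15 libraries, with no normalization. By the methods, reads of TruSeq libraries were trimmed with Trimmomatic, aligned to GRCm38 with HISAT2 and counted with featureCounts. How strand and multiply matching reads were treated is not given in the sources used here, so shared stretches are stated for each receptor.

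Counts were scaled with TMM factors (0.918 to 1.11), filtered with filterByExpr (minimum count 10, 14237 genes left) and fitted over all 15 libraries with 1 mean per group by the quasi-likelihood test of edgeR 4.0.16 in R 4.3.3. A gene was called at a Benjamini-Hochberg adjusted p under 0.05 over all tested genes. The study's methods name DESeq2, which was run as an alternative (version 1.42.0). Intervals are 95% intervals of the fitted coefficient, s.e. is its standard error and ± is the SD between libraries. Replicate pairs differed by more than counting noise (chi-square per gene 5.95 to 45.2), so none was merged.

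The alternatives were RLE factors, total counts alone, DESeq2, no filter, a minimum of 10 counts per library, only the groups compared, a replicate block and leaving out each library. Removing GC and length trends was added after the data were seen, and GC was known for 99.9% of tested genes. The fit was tested on simulated data. The members and the 5 gene lists were chosen with earlier results of these data known. Genes were named if they were members, *Trem2*, called genes of the lists, or the 2 closest profiles of a member spanning at least 1 on the log2 scale. *Pparg*, *C1qa*, *Cxcl16*, *Stab1* and the markers *Tmem119*, *Cx3cr1*, *P2ry12*, *Tyrobp*, *Spi1*, *Kdr*, *Cdh5* and *Tek* were named after their values were seen. Protein sequences were not analysed here, and 2 genes of the lists are not reported here.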

Additional observations from a re-analysis of the deposited data

Results flagged for a closer look

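The response to cholesterol differed between genotypes, by the interaction term of the edgeR fit, for 5 of the genes named above. This term was called for 3.64% of all tested genes. Most list genes were named because they were called, so nothing is read from this count. *Trem2*-/- minus WT, the difference was 0.99 on the log2 scale for *Cd36*, -0.47 for *Colec12*, -0.91 for *Mylip*, -0.45 for *Apoe* and -0.46 for *Mfge8*. All 5 values come from the same 15 libraries. In the search for a library far from the others of its group, 1 of 21 sets of values stood out, that of *Marco* in WT foamy replicate 1 (0.0242 CPM, a single read, with the other 3 libraries at 0). With the other libraries at 0, a single read was enough to stand out, and nothing is read from it.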

How the results depend on the processing

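For the 6 tested receptors, 458 of 483 values under the alternatives kept their direction and their side of the threshold, 8 lost a call, 10 gained one and 7 changed sign without passing the test. In the response of WT cells, 1 receptor was called, against 2 with DESeq2, 2 with no filter, 3 with GC and length trends removed, and 0 to 2 on leaving out each library. In the difference of responses 2 were called, against 4 with no filter and 4 with GC and length trends removed. The counts in the other 3 comparisons stayed within 1.5 times under every alternative run. Changes of sign came only at values near 0. For *Lrp1* between foamy genotypes (-0.027) they were 0.091 with GC and length trends removed, 0.17 without WT foamy replicate 1, 0.036 without *Trem2*-/- foamy replicate 1 and 0.051 without *Trem2*-/- foamy replicate 4, in a range of -0.11 to 0.17 on leaving out each library. For *Olr1* between non-foamy genotypes (-0.054) they were 0.12 with the replicate block, 0.0056 without WT non-foamy replicate 2 and 0.28 without *Trem2*-/- non-foamy replicate 1, in a range of -0.28 to 0.28 on leaving out each library. The cause of these changes was not tested.

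The replicate numbers did not pair the libraries. Of 14 same-numbered pairs, 1 had a correlation of deviations over 0.1 (range -0.08 to 0.14), and 4 of 15 libraries correlated best with their own number. With the replicate block, the difference of responses called 294 genes of all against 518, and 1, 1, 4, 4 and 2 receptors were called in the 5 comparisons, as without it. Of the named list genes, *Mfge8* in the difference of responses (-0.43, adjusted p = 0.0611) and *Lrp2* between foamy genotypes (-1.04, adjusted p = 0.0757) missed the threshold with the block. Over all genes, the WT response called 399 genes, against 881 with DESeq2, 607 with no filter, 144 with only the groups compared, 1021 with the trends removed and 146 to 526 on leaving out each library. The *Trem2*-/- response called 20, against 56, 61 (no filter) and 41 (trends removed), and 10 to 18. The difference called 985 with DESeq2 and 1171 with the trends removed, and 201 to 661 on leaving out each library. Of the list genes, the calls of *Snx17*, *Acsl1*, *Nr1h3* and *Ppard* without cholesterol and of *Fabp5* with it were lost on leaving out single libraries, with adjusted p up to 0.105, 0.176, 0.0649, 0.264 and 0.0778. The calls of *Nr1h3*, *Ppard* and *Fabp5* were also lost under total count scaling (adjusted p = 0.195, 0.163 and 0.0922). That of *Acsl1* was also lost with no filter on low counts (0.0665) and with only the groups compared (0.0579). Depth limits *Marco* and *Vldlr*, which had too few reads to be tested.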
